A study of Mus musculus with 12 samples.

Results

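The nuclear-encoded subunits of respiratory complexes II to V were described across Neuro-2a cells, a mouse neuroblastoma line, given reagents that mimic or inhibit miR-155. Members were taken by gene symbol from the deposited tables: Sdha to Sdhd, Cyc1, Cycs, Ndufa4, and every symbol that begins with Uqcr, Cox4 to Cox8 or Atp5, isoform genes included. That rule gave 48 of 15767 genes, with 4 in complex II, 9 in complex III, 17 in complex IV, 17 in complex V, and Cycs, the electron carrier cytochrome c. A minimum on counts left 47 for testing, and the member left out was Cox6b2, a testis isoform of a complex IV subunit.

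RNA was sequenced in 12 libraries, 4 in each of 3 groups. All cells were labelled wild type and were transfected without serum or antibiotics, with miR-Con as the control small RNA, with a mimic of miR-155, or with an inhibitor of it. The medium was changed after 4 h and the cells were cultured to day 2. The labels number the libraries 1 to 4 in each group but do not say what a number stands for, nor whether libraries came from separate cultures, so the p-values cover only how these libraries vary, and that variation may be technical. Neither miR-155 nor the uptake of the reagents was measured in the tables, and Neuro-2a is a single tumour line. Of 18 neuroblastoma markers, 17 were above 1 CPM, the count scaled to library size.

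Complex II oxidises succinate and passes its electrons to ubiquinone. Complex III hands electrons from ubiquinol to cytochrome c, complex IV passes them to oxygen, and complex V, the ATP synthase, uses the proton gradient that results. Neurons draw most of their ATP from this system, whereas tumour lines such as Neuro-2a also rely on glycolysis, and several complex IV subunits have alternative isoform genes that are used in muscle, testis or at low oxygen. The subunits encoded by mitochondrial DNA were not analysed here.

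The 3 libraries numbered 4, 1 from each group, stood apart from the other 9 across the whole table. Of 13014 genes tested, 41.5% differed between number 4 and numbers 1 to 3 at an adjusted p under 0.05 in edgeR's quasi-likelihood test, which adjusts by the Benjamini-Hochberg method over all genes. Each group holds 1 such library, so number and treatment were not confounded. Total counts were 60695388 to 74200532 per library, with the libraries numbered 4 inside that range, and members took 1.43% to 1.72% of counts. Group results below were also obtained with numbers 1 to 3 alone.

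The reagents are a mimic and an inhibitor of miR-155, so its sequence and the sites in the members that match its seed are shown first. The mature sequence, from RefSeq with build GRCm38.p6, has its seed (bases 2 to 8) in capitals.
mmu-miR-155-5p: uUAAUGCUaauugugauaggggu
In their annotated 3' UTRs, 6 of 48 members, or 12.5%, held a match to this seed, against 13.4% of 15496 genes with a UTR in GENCODE M21. The members' UTRs were short, with a median of 268 bases against 1224 over all genes. Each site is shown in a window of 30 bases, with the matched letters in capitals. An 8mer is AGCATTAA, a 7mer-m8 is AGCATTA and a 7mer-A1 is GCATTAA. Uqcr11 held an 8mer, Uqcrfs1 and Atp5g1 a 7mer-m8, and Sdhc, Atp5g2 and Atp5mpl a 7mer-A1.
Uqcr11: ttgatgggtgcAGCATTAAaccttattctt
Uqcrfs1: aaatattatcaAGCATTAgcataataaaac
Atp5g1: cagtcctgctaAGCATTAgcttaaattaag
Sdhc: acttggcaaggGCATTAAattcaacaacca
Atp5g2: tttgaatgttgGCATTAAgggcatgtacag
Atp5mpl: tttataatgtgGCATTAAtaaatgtatctg

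None of these 6 members passed edgeR's test between mimic and control (adjusted p = 1 for each). Uqcr11, a small accessory subunit of complex III and the member with the 8mer, measured 35.9, 45.9, 39.6 and 36.0 CPM in control, 36.1, 41.9, 41.2 and 38.4 CPM in mimic, and 42.0, 42.2, 43.3 and 39.5 CPM in inhibitor. Mimic lay within the control range, and its log2 fold change against control was 0.00 (95% interval -0.19 to 0.19). Uqcrfs1, the Rieske iron-sulfur protein of complex III, measured 151, 172, 163 and 160 CPM in control, 139, 160, 159 and 167 CPM in mimic, and 173, 166, 164 and 173 CPM in inhibitor. Mimic and control overlapped, and the log2 fold change was -0.05 (95% interval -0.19 to 0.09). For the other 4, the log2 fold changes of mimic against control were -0.07 for Sdhc, a membrane anchor of complex II, -0.06 for Atp5g1 and for Atp5g2, which both encode the ring subunit c of ATP synthase, and -0.01 for Atp5mpl, a small membrane subunit of ATP synthase. The intervals of all 6 included 0. With other libraries, scaling or models, the sign changed under 5 of 18 alternatives for Uqcr11 and 4 for Atp5mpl. It changed under 1 for each of the other 4. In mimic against inhibitor all 6 were below 0, from -0.11 to -0.06, but so were 38 of 47 members, and none was called. A match of letters is a description of the UTR and was not tested as a site of action.

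Members were among the abundant transcripts of these cells. On the TPM scale, which divides counts by gene length and allows genes to be compared, 40 of 48 members were above 100 TPM and 6 above 1000 TPM, with 7 from 10 to 100 TPM and 1 below 10 TPM. The median member measured 280 TPM against 12.1 TPM over all genes, and 23 members were among the 500 most abundant genes. TPM levels depend on the length given to a gene. The lengths implied by the deposited TPM were 0.999 to 3.7 times the merged exon length in GENCODE M21, with a median of 1.76 over 47 members. The order of levels is therefore also given as CPM per kb of that annotated length, an alternative chosen after seeing the data.

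**Figure D1:**
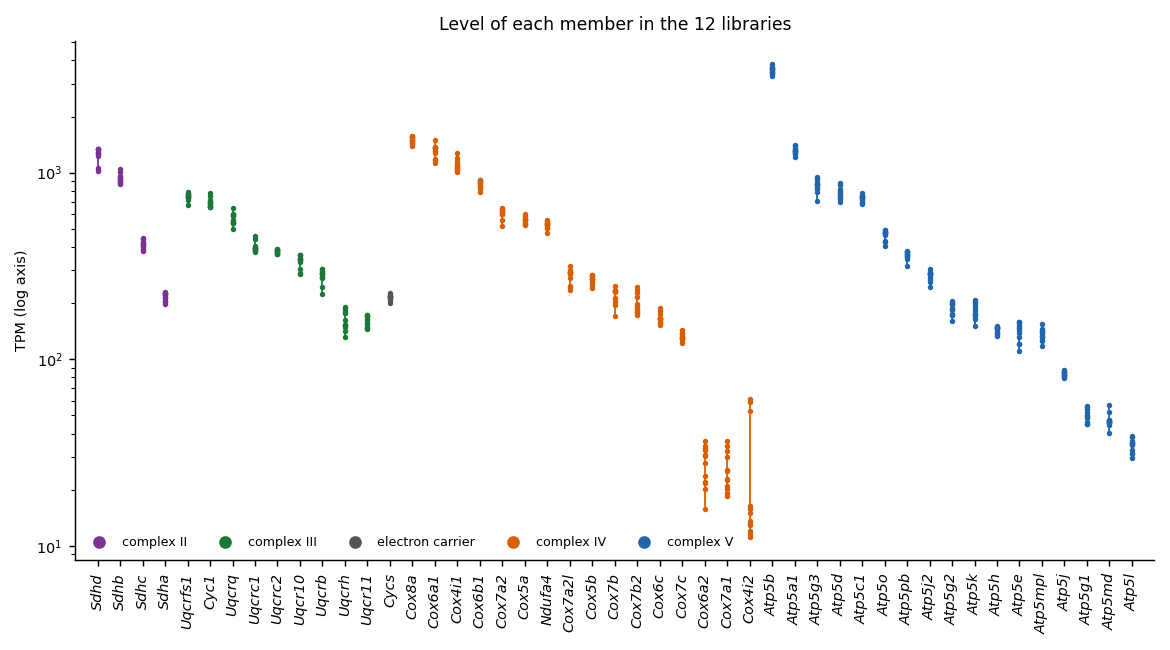
TPM (log axis) of each of the 47 tested members, ordered by complex and level; each point is 1 of 12 libraries, a line joins the lowest and the highest, and colour gives the complex. Atp5b is highest, Cox6a2, Cox7a1 and Cox4i2 are lowest, and Cox4i2 has 3 points far above its other 9.

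Within complex II, Sdhd, a membrane anchor, measured 1233 ± 122 TPM (SD, n = 12) and Sdhb, the iron-sulfur subunit, 936 ± 50.8 TPM. Per annotated length this order turned, with 197 ± 19.8 CPM per kb for Sdhd and 230 ± 19.0 for Sdhb. Sdhc followed at 411 ± 21.1 TPM, and Sdha, the flavoprotein that binds succinate, was lowest on both scales at 217 ± 10.2 TPM. Sdha measured 217, 199, 206 and 223 TPM in control, 228, 213, 227 and 224 TPM in mimic, and 203, 216, 228 and 224 TPM in inhibitor, with no separation of the groups. Over the 12 libraries Sdhd and Sdhb overlapped in TPM, and no other pair of the 4 did. In complex III, Uqcrfs1 measured 744 ± 29.8 TPM and Cyc1, the cytochrome c1 subunit, 692 ± 39.0 TPM, with overlap. Per annotated length Cyc1 was highest at 332 ± 28.5 CPM per kb and Uqcrfs1 ranked 5 of 9 at 119 ± 7.15, so their order rests on the length model. Uqcrc1 and Uqcrc2, the core subunits, measured 400 ± 25.2 and 378 ± 8.24 TPM and overlapped as well. Uqcr11 was lowest at 160 ± 10.4 TPM, within the spread of Uqcrh, the hinge protein, at 163 ± 19.3 TPM. Per annotated length Uqcrb was lowest at 56.1 ± 4.39 CPM per kb, overlapping with both.

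Cycs measured 215 ± 6.93 TPM (SD, n = 12), near Sdha. It measured 219, 201, 207 and 215 TPM in control, 219, 221, 214 and 217 TPM in mimic, and 219, 216, 227 and 210 TPM in inhibitor, a narrow range in which the groups overlapped. In complex IV, Cox8a, a small structural subunit, was highest on the TPM scale at 1498 ± 60.4 TPM. Cox8a measured 1479, 1565, 1503 and 1387 TPM in control, 1545, 1447, 1537 and 1423 TPM in mimic, and 1553, 1499, 1579 and 1459 TPM in inhibitor, and the groups overlapped. Cox6a1 and Cox4i1, the widely expressed isoforms of subunits 6A and 4, followed at 1305 ± 105 and 1101 ± 76.4 TPM. Per annotated length Cox4i1 led with 480 ± 44.7 CPM per kb, ahead of Cox8a with 408 ± 22.5, and the 2 overlapped. The isoforms Cox6a2, Cox7a1 and Cox4i2 were the lowest tested members of complex IV on both scales, at 27.4 ± 6.61, 25.7 ± 6.14 and 24.6 ± 20.1 TPM. Ndufa4, once assigned to complex I and now counted with complex IV, measured 526 ± 22.8 TPM. Cox6b2 had 4 counts in the fourth inhibitor library and 0 counts in the other 11, where 3 counts, the limit that a count of 0 allows, correspond to at most 0.0496 CPM.

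In complex V, Atp5b, the catalytic beta subunit, was at 3542 ± 145 TPM (SD, n = 12) the highest of all members on both scales and ranked 21 among all genes by TPM. It measured 3459, 3806, 3654 and 3289 TPM in control, 3587, 3447, 3613 and 3429 TPM in mimic, and 3692, 3517, 3617 and 3395 TPM in inhibitor. On TPM the library numbered 4 was the lowest of each group. On scaled CPM this did not hold in mimic, where mimic 4 at 4415 CPM was above mimic 2 at 4216 CPM. Atp5a1, its partner alpha, measured 1310 ± 55.5 TPM, and the central stalk subunits Atp5c1 (gamma), Atp5d (delta) and Atp5e (epsilon) measured 728 ± 28.7, 778 ± 54.3 and 141 ± 16.8 TPM. The lowest members on both scales were Atp5g1 at 50.5 ± 4.00 TPM, Atp5md, a subunit tied to dimers of the synthase, at 47.2 ± 4.16 TPM, and Atp5l, the membrane subunit g, at 34.6 ± 2.89 TPM. Atp5l measured 36.7, 38.6, 35.6 and 31.0 TPM in control, 35.5, 38.9, 31.5 and 29.7 TPM in mimic, and 35.4, 35.2, 34.9 and 32.6 TPM in inhibitor, again lowest in number 4 of each group. Atp5b and Atp5a1 did not overlap between libraries on either scale.

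Single members varied little between libraries. Over 47 members the median coefficient of variation of CPM was 7.86%, and 39 were under 10%. Ndufa4 was lowest at 2.85%, and Cox4i2 was highest at 82.8%, which fell to 14.2% within numbers 1 to 3. Much of the variation was shared between members: control 2 had the highest value of 23 of 47 members and inhibitor 1 of 8, while control 4 had the lowest value of 16 and mimic 1 of 14. These counts were made for members only, so whether other genes share this pattern is not shown. The mean log2 CPM over members was 7.18 in control 2 and 6.94 in mimic 1, with a pooled SD of 0.0659 within groups.

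Mimic, inhibitor and control were compared to ask whether the subunits respond to miR-155. No member was called in any of the 3 comparisons in edgeR's quasi-likelihood test (0 of 47 in each, where 0% of 13014 genes were called for mimic and 0% for inhibitor against control, and 0% between mimic and inhibitor). At an unadjusted p under 0.05 there were 0, 0 and 1 members, against 71, 67 and 77 of all genes (0.546%, 0.515% and 0.592%). With no effect at all, a share of about 0.05 of genes would be under that limit, so the test was conservative here. Its model held group only and left differences between library numbers in the residual spread. The count of 0 calls alone therefore says little about whether members respond. DESeq2 and limma on log2(TPM + 1) called 0 members in each as well, and DESeq2 called 3, 1 and 6 of all genes. With numbers 1 to 3 alone 0 members were called. In bulk RNA, fewer cells of a type and less RNA per cell cannot be told apart.

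The median log2 fold change over 47 members was -0.03 for mimic against control and 0.03 for inhibitor against control, beside -0.01 and -0.01 over all genes. It was -0.06 for mimic against inhibitor, beside 0.00 over all genes. In these comparisons 17, 35 and 9 of 47 members had a fold change above 0, where 46.6%, 44% and 51.4% of all genes did. The comparisons share libraries, so these counts are not independent of each other, and the members vary together between libraries as described above. The first 2 medians changed sign when 1 of certain libraries was left out: mimic against control became 0.02 without control 2 and 0.01 without mimic 1, and inhibitor against control became -0.01 without control 4 and -0.00066 without inhibitor 1. By complex, the medians for mimic against inhibitor were -0.05 in complex II, -0.08 in complex III, -0.05 in complex IV and -0.05 in complex V.

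**Figure D2:**
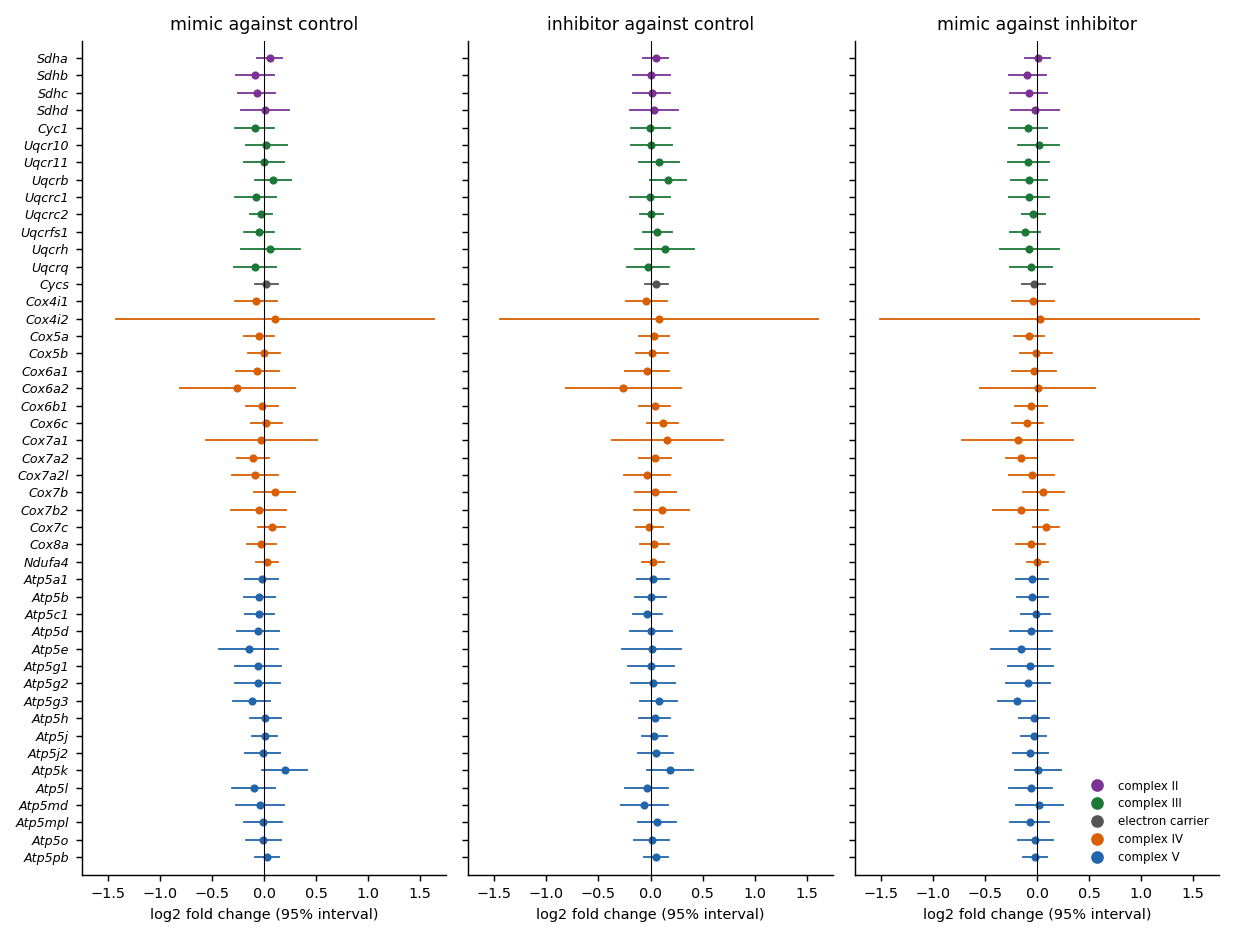
Log2 fold change of each tested member (point) with its 95% interval (line) for mimic and inhibitor each against control (left, middle) and for mimic against inhibitor (right), coloured by complex; the vertical line marks no difference. All 47 estimates lie close to 0, and Cox4i2, with 1 high library in each group, has the widest intervals.

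The members with the smallest p in mimic against control were in complexes IV and V. Atp5k, the membrane subunit e of ATP synthase, measured 28.0, 35.2, 33.6 and 31.3 CPM in control, 31.1, 38.8, 37.6 and 39.6 CPM in mimic, and 40.8, 33.7, 36.1 and 35.7 CPM in inhibitor. Its control values were lower on average but overlapped with both other groups, and the log2 fold change was 0.20 ± 0.10 (SE) for mimic and 0.19 ± 0.10 for inhibitor (edgeR adjusted p = 1 for both). Cox7a2, the widely expressed isoform of subunit 7A, measured 142, 151, 148 and 141 CPM in control, 117, 147, 143 and 135 CPM in mimic, and 152, 149, 152 and 147 CPM in inhibitor. The first mimic library was the lowest of all, and the log2 fold change of mimic against control was -0.11 ± 0.07.

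Atp5g3, the most abundant of the 3 genes for subunit c, measured 498, 582, 541 and 503 CPM in control, 412, 521, 523 and 499 CPM in mimic, and 607, 561, 535 and 536 CPM in inhibitor. Every mimic library was below every inhibitor library, with a log2 fold change of -0.20 ± 0.08 (unadjusted p = 0.0354, edgeR adjusted p = 1). Cox7a2 also showed no overlap between mimic and inhibitor, at -0.15 ± 0.07, and Cox7c, a small subunit of complex IV, was the third such member. Cox7c measured 43.4, 43.1, 43.8 and 45.0 CPM in mimic and 40.3, 40.7, 41.6 and 42.6 CPM in inhibitor, with mimic above inhibitor in all 4 libraries. On the CPM scale, groups without overlap thus occurred for 3 of 47 members, or 6.38%, in mimic against inhibitor, where 0.861% of all genes had none. There were 0 of 47 in mimic against control (0.684% of all genes) and 0 of 47 in inhibitor against control (0.645%). The count for mimic against inhibitor depended on the scale. On TPM, mimic reached 868 for Atp5g3 and 639 for Cox7a2, above the lowest inhibitor values of 858 and 615. Cox7c stayed apart on TPM, with at least 137 in mimic and at most 132 in inhibitor. No share of all genes on TPM is given here. Against control, Atp5g3 in mimic was at -0.12 ± 0.08 and overlapped, and the fold changes of all 3 members in mimic against inhibitor had an adjusted p of 1.

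In inhibitor against control, Uqcrb, the ubiquinone-binding accessory subunit of complex III, had the smallest p. It measured 46.8, 42.0, 43.0 and 53.0 CPM in control, 45.8, 50.8, 50.3 and 49.9 CPM in mimic, and 52.7, 50.6, 53.5 and 50.8 CPM in inhibitor. The fourth control library was as high as the inhibitor libraries while the other 3 were lower, and the log2 fold change was 0.17 ± 0.08 (edgeR adjusted p = 1). It was 0.25 with numbers 1 to 3 alone, also with an adjusted p of 0.999. Cox6c, a small subunit of complex IV, measured 147, 155, 146 and 151 CPM in control, 135, 164, 153 and 156 CPM in mimic, and 159, 152, 173 and 165 CPM in inhibitor, at 0.12 ± 0.07, with overlap. Uqcrfs1 was at a log2 fold change of -0.11 ± 0.07 in mimic against inhibitor, with the values given above overlapping. Of the 47 members, 46 lay within 0.25 of 0 on the log2 scale in each comparison with control, the exception being Cox6a2 at under 4 CPM, and all 47 did in mimic against inhibitor.

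Between the libraries numbered 4 and the rest, members changed in both directions. In edgeR's test 10 of 47 members, or 21.3%, were called, against 41.5% of all genes. Of these, 4 were higher in number 4 (8.51% of members, 20.4% of all genes) and 6 lower (12.8%, 21.1% of all genes). For 8 members, or 17%, the libraries numbered 4 did not overlap with the other 9, where 36.9% of all genes had no overlap. In edgeR the share of members called was thus below the background. On TPM without further scaling this did not hold: limma called 20 members, or 42.6%, beside 40.9% of all genes, with 3 higher and 17 lower, a different split from the 4 and 6 above. All 3 libraries numbered 4 entered each estimate, and leaving out 1 library at a time gave 4 to 15 calls, with 4 (8.51%, beside 28.1% of all genes) without control 4 and 15 (31.9%, beside 50.2%) without control 2.

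**Figure D3:**
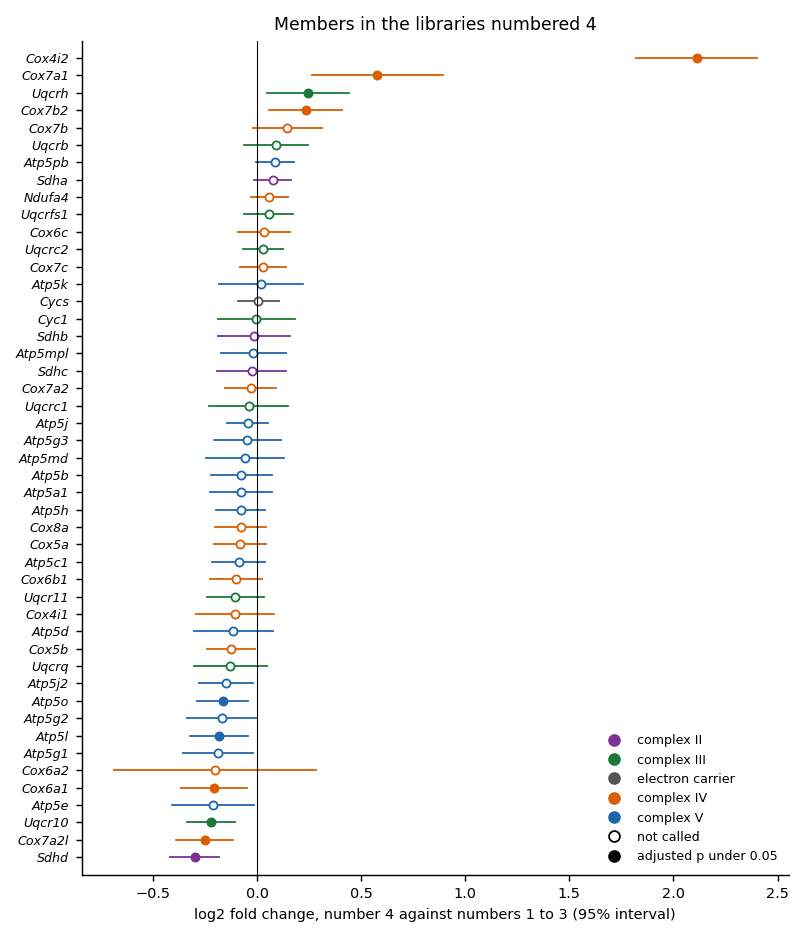
Log2 fold change of each of 47 members in the libraries numbered 4 against those numbered 1 to 3, with its 95% interval, coloured by complex; filled points passed an adjusted p of 0.05 in edgeR. Cox4i2 stands alone at 2.11, Cox7a1 follows at 0.58, and Sdhd is lowest at -0.30.

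Cox4i2, the isoform of subunit 4 known for induction at low oxygen, changed most. It measured 3.40, 3.30, 3.17 and 12.2 CPM in control libraries 1 to 4, 2.67, 3.72, 2.72 and 14.7 CPM in mimic, and 3.79, 2.57, 3.01 and 14.0 CPM in inhibitor. The library numbered 4 was the highest in each group with no overlap, at 4.32-fold (95% interval 3.54 to 5.28) the level of the others, a log2 fold change of 2.11 ± 0.13 (edgeR adjusted p = 1.47e-06). The gene lies at chr2:152754173-152765037 on the plus strand in GRCm38. Cox4i1, its widely expressed counterpart, was not called, with 674, 724 and 709 CPM in the libraries numbered 4 and 685 to 913 CPM in the others. Cox4i1 overlaps Emc8 on the opposite strand, and the strandedness of the counting is not given in the sources used here.

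Cox7a1, the heart and skeletal muscle isoform of subunit 7A, measured 3.07, 3.12, 3.56 and 4.19 CPM in control, 2.70, 3.47, 2.58 and 4.94 CPM in mimic, and 3.29, 4.43, 2.70 and 5.16 CPM in inhibitor. Number 4 was highest within each group, although inhibitor 2 exceeded control 4, and the log2 fold change was 0.58 ± 0.14 (edgeR adjusted p = 0.00787). Without mimic 4 it was 0.47 with an adjusted p of 0.0649. Uqcrh rose by a log2 fold change of 0.24 ± 0.09 (adjusted p = 0.0489), with 77.4 to 83.9 CPM in number 4 and 55.4 to 81.3 CPM in the others. Cox7b2, an isoform of subunit 7B known from testis, rose by 0.23 ± 0.08 (adjusted p = 0.0355), with 17.5 to 21.3 against 14.5 to 20.1 CPM. These last 2 overlapped between the sets and lost the call under 10 and 8 of 16 alternatives.

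Markers of other cell types were low in all libraries. In number 4 against the others, summed CPM was 12.9 to 13.9 against 11.3 to 17.7 for 5 measured fibroblast and mesenchymal markers, of which most was Pdgfrb, and 1.03 to 1.27 against 0.957 to 1.81 for 6 muscle markers. It was 15.2 to 17.1 against 11.5 to 15.0 for 6 glial markers and 8.09 to 8.81 against 4.60 to 7.91 for 5 immune and endothelial markers. Neuroblastoma markers summed to 4590 to 4800 against 4770 to 5090 CPM, with 3 higher and 9 lower of 17 tested. Most of the glial sum was Mbp, at 13.8 to 15.95 CPM against 10.8 to 13.7 CPM, and most of the immune and endothelial sum was Pecam1, at 7.94 to 8.81 CPM against 4.34 to 7.47 CPM. Ptprc, Csf1r, Col1a2, Ckm and Mb had 0 counts in all 3 libraries numbered 4, and at most 0.196 CPM in any of the others. Of the tested markers of other cell types, Pdgfra (1.61 to 3.17 against 0.723 to 1.95 CPM) and Pecam1 were called higher, with edgeR adjusted p = 0.0211 and 0.0114. The part of these marker levels in the members' results was not tested.

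Among the 6 members that fell, Sdhd changed most. It measured 235, 269, 248 and 207 CPM in control, 238, 257, 265 and 209 CPM in mimic, and 272, 258, 248 and 203 CPM in inhibitor. All 3 libraries numbered 4 were below the other 9, at a log2 fold change of -0.30 ± 0.05 (edgeR adjusted p = 0.00112). The other complex II members were not called, and Sdhb and Sdhc overlapped between the sets. Cox7a2l, a relative of subunit 7A that joins complexes III and IV in supercomplexes, measured 172, 198, 174 and 139 CPM in control, 154, 168, 171 and 148 CPM in mimic, and 180, 166, 172 and 147 CPM in inhibitor. It too was lower in every library numbered 4, with a log2 fold change of -0.25 ± 0.06 (adjusted p = 0.00776), and without control 4 it was -0.19 with an adjusted p of 0.0692.

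Uqcr10, a small accessory subunit of complex III, fell by 0.22 on the log2 scale, with 60.9 to 66.4 CPM in number 4 and 69.0 to 77.1 CPM in the others (edgeR adjusted p = 0.00579). Cox6a1 fell by 0.21, with 212 to 229 against 238 to 302 CPM (adjusted p = 0.0406). Atp5o, the peripheral stalk subunit that confers oligomycin sensitivity, fell by 0.17, with 256 to 279 against 285 to 333 CPM (adjusted p = 0.0326). None of these 3 overlapped between the sets, whereas Atp5l, at a fall of 0.18 (adjusted p = 0.0376), did. Of the 10 called members, Cox4i2, Sdhd and Uqcr10 remained called under each of 16 alternatives. Atp5o lost the call under 4, Atp5l under 7 and Cox6a1 under 8.

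**Figure D4:**
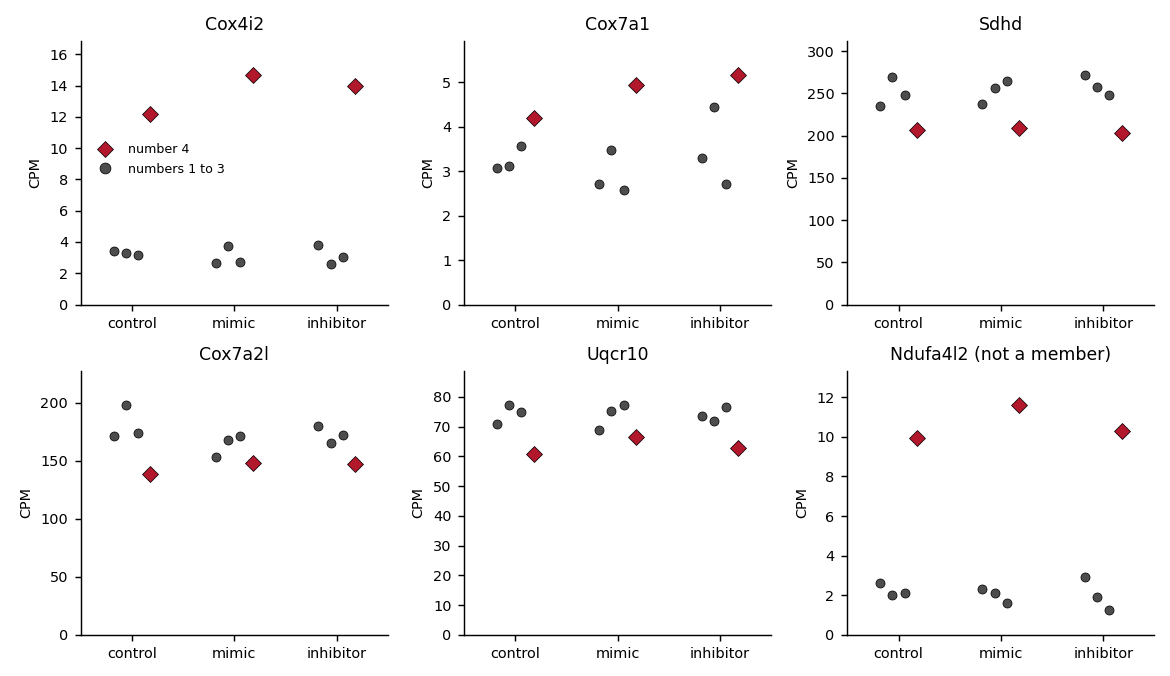
CPM (linear axis from 0) of Cox4i2, Cox7a1, Sdhd, Cox7a2l, Uqcr10 and, beside them, Ndufa4l2, in each of 12 libraries by group; red diamonds are the libraries numbered 4 and grey circles those numbered 1 to 3. Cox4i2 and Ndufa4l2 are several times higher in all 3 diamonds, and Sdhd, Cox7a2l and Uqcr10 are lower.

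Summed TPM was lower in number 4 for most complexes. Complex II summed to 2585 ± 14.4 TPM in number 4 (SD, n = 3) and 2868 ± 91.9 TPM in the others (SD, n = 9), and complex III to 3648 ± 68.9 and 3741 ± 118 TPM. Complex IV summed to 7446 ± 117 and 7926 ± 159 TPM, and complex V to 8853 ± 183 and 9478 ± 271 TPM. All 48 together ran from 22330 to 25160 TPM over the 12 libraries, a 1.13-fold range. Every library numbered 4 was below the other 9 for complexes II, IV and V and for all members, while complex III overlapped. On summed scaled CPM, an alternative chosen after seeing the data, each complex overlapped between the sets, with 14560 to 15460 CPM in number 4 and 14650 to 17640 CPM in the others over all members. By group, complex IV summed to 7796 ± 361 TPM in control, 7751 ± 227 TPM in mimic and 7871 ± 240 TPM in inhibitor (SD, n = 4), which differed by less than their spread.

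Isoform shares were taken from summed TPM of the genes for 1 subunit, and again from counts per annotated length. Cox4i2 made up 1.42, 1.03, 1.16 and 4.97% of the Cox4i1 and Cox4i2 sum in control, 1.10, 1.45, 1.05 and 5.53% in mimic, and 1.30, 1.05, 1.18 and 5.39% in inhibitor. It was the minor isoform in every library, with 5.30 ± 0.291% in number 4 (SD, n = 3) and 1.19 ± 0.161% in the others (SD, n = 9). Per annotated length these shares were 3.67% and 0.814%. Cox7a1 took 2.02% to 4.11% of subunit 7A, with 3.87 ± 0.352% in number 4 and 2.47 ± 0.409% in the others, and Cox7a2l took 27.2% to 33.7%. The mean share of Cox7a2l was 30.7% on TPM and 41.3% per annotated length. Cox6a2, a muscle isoform, took 1.19% to 2.61% of subunit 6A, with a mean of 2.05%, or 1.22% per annotated length. Cox6a2 measured 3.63, 3.76, 3.65 and 2.34 CPM in control, 3.17, 1.66, 3.28 and 3.11 CPM in mimic, and 2.27, 2.52, 3.96 and 2.43 CPM in inhibitor, with no order by group.

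Cox7b2 took 45.3, 50.3, 48.2 and 49.0% of subunit 7B in control, 43.2, 46.4, 46.1 and 45.9% in mimic, and 48.3, 52.7, 44.2 and 51.1% in inhibitor. Its share depends on gene length, since the deposited TPM imply 542 bases for Cox7b2 and 1706 for Cox7b, where the annotation has 542 and 1214. Per annotated length its mean share was 39.2%, beside 47.6% on TPM. In subunit c of ATP synthase, Atp5g3 took 75.7% to 79.9%, Atp5g2 15.7% to 18.9% and Atp5g1 4.26% to 5.42%. Of 24 exact two-sided permutation tests of 8 shares between groups, 0 had an unadjusted p under 0.05. The smallest unadjusted p was 0.114, for Cox7b2 in mimic against control, and adjusted p ran from 0.869 to 0.943. The smallest unadjusted p that 4 libraries against 4 can reach is 0.0286. A single share at that limit would not pass 0.05 after adjustment over 24 tests. The absence of calls therefore says little about whether shares differed.

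**Figure D5:**
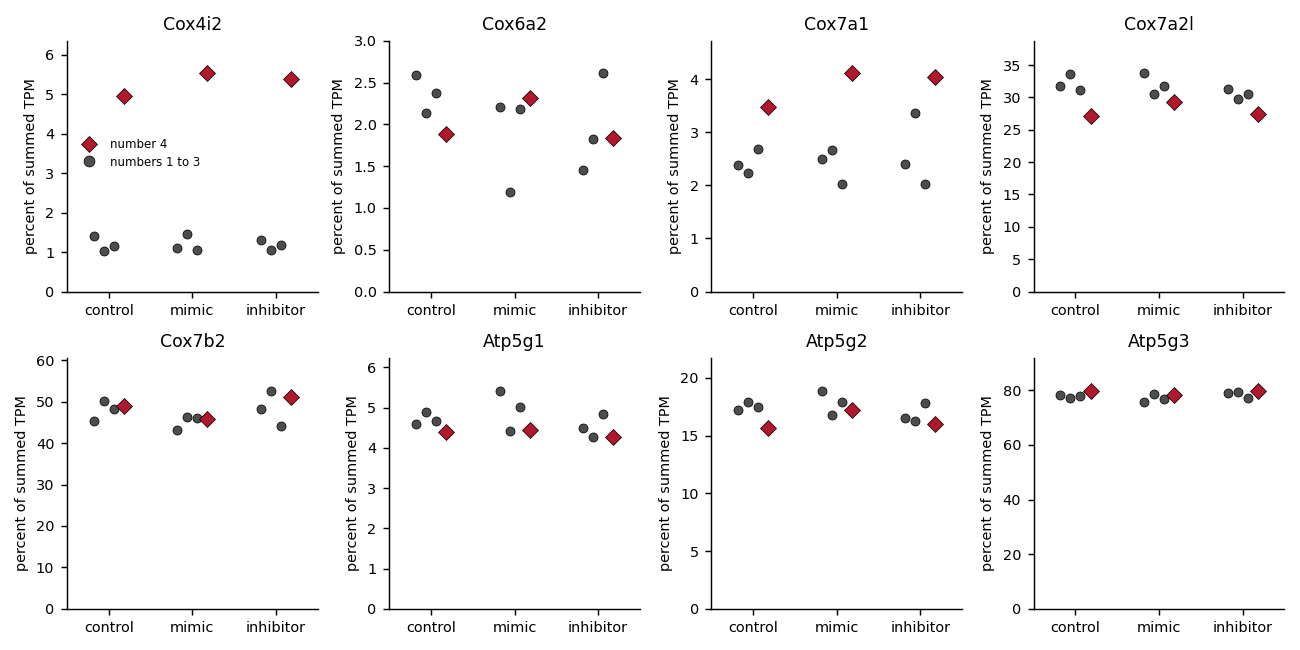
Percent of the summed TPM of a subunit's isoform genes taken by each of 8 isoforms, per library and group (axes from 0); red diamonds are the libraries numbered 4. Cox4i2 and Cox7a1 are higher in the diamonds, and Cox7b2 is near 50 percent in each group.

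Promoters were read for 37 of the 48 members from a RefSeq table of build GRCm38.p6, which holds 250 bases before and 50 after a start, and gave 40 promoters. Short motifs of 4 factors known from respiratory genes were searched on both strands. The ETS core CGGAAG, bound by the GABP family, was present in 52.5% of member promoters and 16.9% of 32851 promoters in the table. The palindromic NRF1 motif was in 25.0% and 4.60%, the ERR site AAGGTCA in 12.5% and 4.72%, and the YY1 core AAGATGG in 10.0% and 6.34%. Each motif was searched on its own, so matches may overlap, and a match is a description of the sequence only.

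The promoters of 3 members are printed because their genes were called in number 4 in opposite directions and differ in these motifs: Sdhd and Cox6a1, which were lower, and Cox7a1, which was higher. Each is the 250 bases before the start, in the direction of the gene, with ETS and NRF1 matches on either strand in capitals.
Sdhd chr9:50603850-50604099: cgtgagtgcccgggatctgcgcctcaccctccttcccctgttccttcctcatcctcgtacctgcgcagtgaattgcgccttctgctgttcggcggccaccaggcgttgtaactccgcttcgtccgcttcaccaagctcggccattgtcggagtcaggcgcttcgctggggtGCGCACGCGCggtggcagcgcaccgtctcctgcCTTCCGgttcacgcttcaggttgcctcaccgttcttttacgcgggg
Cox6a1 chr5:115348959-115349208: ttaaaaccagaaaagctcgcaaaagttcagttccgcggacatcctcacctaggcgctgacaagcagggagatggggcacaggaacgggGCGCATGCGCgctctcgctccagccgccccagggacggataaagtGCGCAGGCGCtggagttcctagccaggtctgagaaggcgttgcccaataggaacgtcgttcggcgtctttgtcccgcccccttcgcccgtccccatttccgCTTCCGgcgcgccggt
Cox7a1 chr7:30183921-30184170: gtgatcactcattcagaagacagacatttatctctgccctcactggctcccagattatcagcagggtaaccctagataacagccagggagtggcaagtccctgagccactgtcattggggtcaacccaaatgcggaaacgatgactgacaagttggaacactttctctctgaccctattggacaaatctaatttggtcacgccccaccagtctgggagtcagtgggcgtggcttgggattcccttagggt
Sdhd, on the minus strand of chromosome 9, and Cox6a1, on the minus strand of chromosome 5, hold both motifs in this window. Over the full 300 bases Sdhd also holds the ERR site. Cox7a1, on the plus strand of chromosome 7, holds none of the 4. Over the full 300 bases, called members of both directions included promoters with and without these motifs. A link between motif and direction was not tested. Uqcr10 and Cox7a2l, which were lower, also had none of the 4, and Uqcrh, which was higher, had the ETS core. Cox7b2, which was higher, had none. Atp5o, which was lower, had the NRF1 motif, and Atp5l, also lower, had the ETS core and the ERR site. No promoter was available for Cox4i2, the member that changed most.

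The genes that serve these complexes were counted from lists of known factors. Between groups 0 were called of 41 tested assembly factors, 37 nuclear complex I subunits and 22 regulators in each of the 3 comparisons. In number 4, complex I subunits had 2 higher and 2 lower (10.8%), regulators 5 higher and 3 lower (36.4%), and assembly factors 2 higher and 18 lower (48.8%), against 41.5% of all genes. The following genes were chosen after their values were seen. Sco1, a copper chaperone for complex IV, fell by 0.59 on the log2 scale in number 4 (edgeR adjusted p = 2.79e-05), with 22.9 to 24.4 CPM against 33.5 to 37.3 CPM. The 2 assembly factors that rose were Lrpprc, which stabilises mitochondrial mRNAs, at 0.58 (adjusted p = 2.08e-05), and Higd1a, a complex IV factor known for induction at low oxygen, at 0.58 (adjusted p = 4.01e-05).

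Ndufa4l2, a relative of the member Ndufa4 that is also known for induction at low oxygen, measured 2.60, 2.02, 2.12 and 9.96 CPM in control, 2.33, 2.12, 1.63 and 11.6 CPM in mimic, and 2.90, 1.92, 1.26 and 10.3 CPM in inhibitor. All 3 libraries numbered 4 were above the other 9, at 5.15-fold or 2.36 ± 0.13 on the log2 scale (edgeR adjusted p = 7.28e-07). Ndufa4 itself did not pass the test, with 273 to 277 CPM in number 4 and 255 to 275 CPM in the others. Hif1a, which encodes an oxygen-regulated transcription factor, had a log2 fold change of 0.33 ± 0.11 (edgeR adjusted p = 0.0400). It measured 132 to 157 CPM in number 4 and 83.9 to 134 CPM in the others, with overlap. These genes were picked from lists in which others fell, and a part of oxygen in their levels was not tested.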

How the data were processed

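The authors deposited whole-number read counts per gene and TPM values for 15767 genes in 12 libraries. The submitters' processing notes name STAR, fastp, StringTie, featureCounts and edgeR, with build GRCm39; versions, strandedness and annotation release are not stated there. Counts divided by the deposited TPM gave 1 length per gene, with a spread of at most 1.003-fold between libraries. Groups came from the treatment label. The TPM table held 15499 symbols, a name table supplied 260 more, and 8 genes stayed unnamed. Counts were tested with edgeR 4.0.16 (R 4.3.3): filterByExpr kept 13014 genes, sizes were scaled by TMM, and a robust quasi-likelihood model was fitted to all libraries with group, adjusting p over all genes by Benjamini-Hochberg at 0.05. Number 4 was compared with numbers 1 to 3 in a model with group and number. CPM uses scaled sizes. Isoform shares were tested by exact permutation. Scripts were tested on simulated data.

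Members, lists and tests were chosen with earlier results of these data known. Per-library values are given for the 3 members of smallest p per group comparison, the 4 with the largest change in number 4, the most and least abundant of each complex, and isoform sets. Cox7c and the other members called in number 4 were named after their values were seen. Alternatives were DESeq2 1.42.0, upper-quartile scaling, no filter, limma 3.58.1 on log2(TPM + 1), the replicate number as a block, numbers 1 to 3 alone, leaving out each library, and, added after seeing the data, annotated lengths for levels and isoform shares, and scaled CPM for complex sums. The chi-square per degree of freedom between libraries of a group was 20.7 to 241, so none were copies. Gene positions and UTRs came from GENCODE M21 (GRCm38), which is not the authors' build.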

Additional observations from a re-analysis of the deposited data

Results flagged for a closer look

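In each group of 4 libraries, the gap between the highest or the lowest library and its nearest neighbour was set against the group's range for 24 named members. Chance flags about 1 in 20 independent groups, and 8 of 72 were flagged. Some of these members were named for their change in number 4, and members vary together between libraries. The count is therefore a description and not a test against that rate. Cox4i2 stood out in all 3 groups, with its highest value of 12.2 CPM in control 4, 14.7 CPM in mimic 4 and 14.0 CPM in inhibitor 4. Cox6a2 was lowest in control 4 at 2.34 CPM, lowest in mimic 2 at 1.66 CPM and highest in inhibitor 3 at 3.96 CPM, so its distant libraries carried different numbers. Cox7b2 was highest in control 4 at 19.5 CPM. Uqcrb was lowest in mimic 1 at 45.8 CPM.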

How the results depend on the processing

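The 33 results were recomputed to 570 values, of which 511 kept their call and direction or, for medians, moved by less than the spread between libraries. The direction but not the call was kept by 39, 7 counts moved by over 1.5 times, and 13 fold changes of single members changed sign. For isoform shares, the smallest possible p was 0.125 with the block and 0.1 with numbers 1 to 3 alone. Neither setting could call a share, so their agreement was fixed in advance. No member was called between groups under any alternative. Members called in number 4 were 20 (42.6%, beside 40.9% of all genes) with limma on log2(TPM + 1) and 4 to 15 when 1 library was left out, where 28.1% to 50.2% of all genes were called. With 1 library numbered 4 left out, 4 were called without control 4, 5 without mimic 4 and 5 without inhibitor 4. The cause was not tested.

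All 13 were in mimic against control, for members with a seed match and an adjusted p of 0.865 to 1. Atp5mpl was 0.00188 with upper-quartile scaling and 0.00982 with limma. Uqcr11 was -0.0262 with numbers 1 to 3 alone. When 1 library was left out, Atp5mpl ran from -0.0761 to 0.0727, Uqcr11 from -0.0383 to 0.0852, Sdhc from -0.117 to 1.41e-05, Uqcrfs1 from -0.0806 to 0.0104, Atp5g1 from -0.121 to 0.0254 and Atp5g2 from -0.133 to 0.0173.

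With the replicate number as a block, the member medians were -0.0296, 0.0274 and -0.0589 for mimic and for inhibitor against control and for mimic against inhibitor, with 0 members called. By the correlation of same-numbered libraries, the numbers pair the samples only in part. Over all genes 8 of 12 such pairs were over 0.1, from -0.0884 to 0.63. Those of number 4 were 0.559 to 0.63, and its libraries matched best with each other in every comparison. Own-number libraries were the best match in 6 of 12 cases. Over the members alone 10 of 12 pairs were over 0.1, from -0.125 to 0.965, and 7 matched best with their own number. Cox6b2 had too few counts to compare at this depth.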
